A study of Homo sapiens with 4 samples.

Results

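The canonical Wnt pathway core examined here was a set of 10 genes, CTNNB1, APC, AXIN1, AXIN2, GSK3B, LRP5, LRP6, TCF7L2, DVL1 and DVL3. They were chosen by name for their role in the pathway, with earlier results of these data known. A probe of a member was kept when its detection p was under 0.01 on 2 or more of the 4 arrays. By that rule 9 of the 18 probes annotated to these genes were kept, out of 16561 kept probes in all, and 7 of the 10 genes were measured, out of 10239. The 3 genes without a kept probe were APC, LRP6 and DVL1. The study transfected A549 cells, a line from a human lung adenocarcinoma, either with a mimic, a synthetic double-stranded copy, of the microRNA called miR-509-3p, or with the negative control mimic instead. All cells were of this 1 line, and total RNA was taken 24 hours later. Each group held 2 Illumina bead arrays, mimic 1 and 2 and control 1 and 2. A mimic loads the cell with more of the microRNA than it makes itself, and the labels leave unsaid whether the 2 arrays of a group stand for separate cultures. All p-values therefore rest on the spread among these arrays, which may be technical.

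In the canonical Wnt pathway, secreted Wnt proteins bind a Frizzled receptor together with LRP5 or LRP6, and Dishevelled proteins relay the signal. Without Wnt, a cytoplasmic complex of AXIN, APC, the kinase GSK3B and casein kinase 1 marks beta-catenin, the product of CTNNB1, for destruction. When the signal stops that complex, beta-catenin enters the nucleus and joins TCF and LEF factors on target genes, among them AXIN2, whose product feeds back to restrain the pathway. In airway epithelium the pathway is known for its part in lung development and in the renewal of epithelial cells. A microRNA guides Argonaute proteins to messenger RNAs that pair with its seed, bases 2 to 8 from its 5′ end.

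The transfected microRNA is shown first because every comparison rests on it. Its mature sequence (RefSeq, GRCh38.p14) is encoded by 3 gene copies on the minus strand of chromosome X, of which MIR509-1 holds it at chrX:147260550-147260571, and the seed is in capitals.
miR-509-3p: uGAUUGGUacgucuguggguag
The 7 letters that pair with this seed in a transcript, written as DNA, are ACCAATC, and 0 of the other mature human microRNAs in the RefSeq table carried the same seed. Transcript sequences were not used here, so no member was searched for sites. Promoters of 8 of the 10 genes were matched in the RefSeq table (GRCh38.p14), AXIN2 and LRP6 being unmatched. The 250 bases upstream of a start site are printed for TCF7L2 and LRP5, which were lower with the mimic, and for DVL3, which was higher. Letters that a TCF factor is known to bind, namely CTTTGAT and also CTTTGAA and also CTTTGTA and also CTTTGTT on either strand, are in capitals. TCF7L2 has 3 start sites in the table, and the one shown is the one with a match, at chr10:113126383-113126632 on the plus strand. That of LRP5 is at chr11:68312341-68312590 and that of DVL3 at chr3:184155127-184155376, both on the plus strand.
TCF7L2: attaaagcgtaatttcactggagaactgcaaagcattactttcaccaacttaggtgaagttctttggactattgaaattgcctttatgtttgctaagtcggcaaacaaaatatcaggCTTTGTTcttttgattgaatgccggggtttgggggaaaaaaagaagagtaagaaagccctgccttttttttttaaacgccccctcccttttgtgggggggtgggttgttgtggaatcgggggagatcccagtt
LRP5: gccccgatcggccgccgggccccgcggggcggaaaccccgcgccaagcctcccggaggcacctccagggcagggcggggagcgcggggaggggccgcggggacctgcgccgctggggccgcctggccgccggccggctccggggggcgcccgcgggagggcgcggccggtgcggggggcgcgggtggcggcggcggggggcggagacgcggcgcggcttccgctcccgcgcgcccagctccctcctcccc
DVL3: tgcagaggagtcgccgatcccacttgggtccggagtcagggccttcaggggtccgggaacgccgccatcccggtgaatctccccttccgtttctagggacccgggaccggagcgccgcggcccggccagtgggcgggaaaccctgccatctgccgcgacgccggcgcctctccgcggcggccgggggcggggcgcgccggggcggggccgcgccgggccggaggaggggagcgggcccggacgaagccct
TCF7L2 held CTTTGTT from base 133 to base 127 before its start, and it was the only 1 of the 8 matched genes with any of these letters. Of all 35116 promoter windows of this length, 12.0% held 1 or more of them. That share is over windows and the count is over genes, of which TCF7L2 and APC had more than 1 window each. The match lay in 1 of the 3 TCF7L2 windows. The windows also differed in base content, with 42.4% G and C for this TCF7L2 window, 87.2% for LRP5 and 77.6% for DVL3, against a median of 58.0% over all windows. The TCF7L2 windows without a match held 68.0% and 48.4%. A match is a description of letters and no measure of binding.

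The arrays were alike in overall signal. The median probe signal was 207 on both mimic arrays and 202 and 205 on control 1 and control 2, and 33.7% to 34.7% of 47320 probes were detected. The correlation of normalized log2 values across genes, themselves not independent, was 0.996 between the mimic arrays and 0.994 between the control arrays, and 0.967 to 0.968 across groups. At an adjusted p under 0.05, limma called 34.4% of all genes, 16.5% lower and 18.0% higher with the mimic, so calls were common and the counts below are read against these shares. Of all kept probes, 29.7% were called in either direction, which is the share to set beside second probes of a gene. Of 7 lung epithelial markers 6 were measured, KRT18 being the one that was not, and their summed linear signal was 40753 and 40124 on the mimic arrays and 54249 and 50881 on the control arrays. The bright keratins weigh most in that sum, and the 6 markers did not move together. KRT7 and CDH1 were called lower and MUC1 higher, while KRT8, KRT19 and EPCAM did not pass. The second kept probe of MUC1 did not pass either. Of 13 markers of leukocytes, endothelium and fibroblasts 4 were measured, CD14, CD68, COL1A1 and THY1. Their sum was 7108 and 7323 on the mimic arrays and 4326 and 4512 on the control arrays. The bright CD68 and CD14 weigh most in that sum. CD14, CD68 and THY1 were called higher and COL1A1 did not pass, nor did the second kept probes of CD14 and CD68. PTPRC, CD3E, PECAM1, VWF, CDH5, COL1A2, DCN and PDGFRB were detected on 0 arrays. Both sums thus moved with the mimic, and their part in the results was not tested.

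Of the 7 measured core genes, TCF7L2, AXIN2 and LRP5 fell with the miR-509-3p mimic, DVL3 rose, and CTNNB1, AXIN1 and GSK3B did not pass. That is 3 of 7 lower, beside 16.5% of all genes, and 1 of 7 higher, beside 18.0% of all genes. The median log2 fold change of the 7 genes was 0.14, against 0.04 over all genes, with members on both sides of 0. Mimic and control arrays did not overlap for 6 of the 7 genes, beside 72.9% of all genes. Without mimic 1 or without mimic 2, 0 of the 7 were called lower, and without either control array 2 were, while 0 were called higher without any 1 of the 4 arrays. In the same fits the share of all genes called lower was 5.42% without mimic 1, 6.03% without mimic 2, 10.5% without control 1 and 10.2% without control 2, and the share called higher was 2.65% without mimic 1 and 3.48% without mimic 2, with 1127 and 1046 genes called higher without control 1 and control 2.

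**Figure D1:**
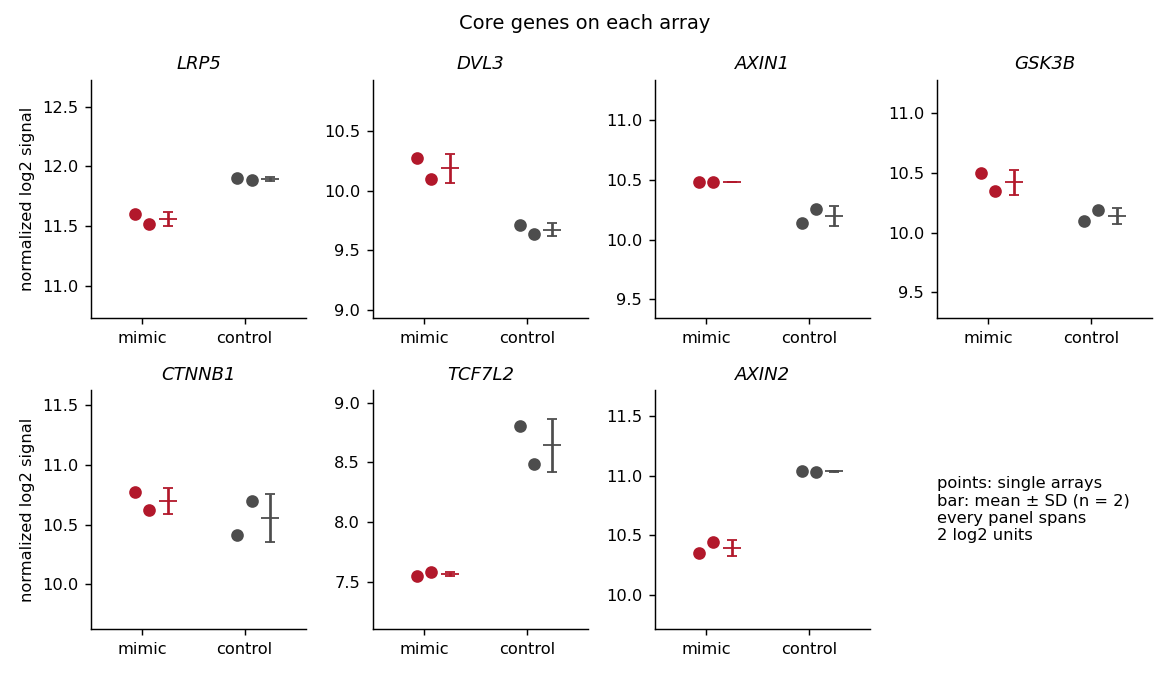
Normalized log2 signal of each measured core gene on the 2 mimic arrays (left in each panel) and the 2 control arrays (right), with mean ± SD beside the points (n = 2). Panels have different origins but the same span, and groups overlap for CTNNB1 alone.

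Of the co-receptors, LRP5 was lower with the mimic. Its brightest probe read a normalized log2 signal of 11.60 and 11.52 on the mimic arrays, against 11.91 and 11.88 on the control arrays. Both mimic arrays lay below both control arrays. The fall in LRP5 was 1.26-fold, a log2 fold change of -0.33 ± 0.08 (± its SE, as for all fold changes here), with a limma adjusted p of 0.0349 after Benjamini-Hochberg adjustment over genes. The second kept probe of LRP5 read 6.40 and 6.67 on the mimic arrays and 7.55 and 7.35 on the control arrays. Neither mimic array read it well above background, so its value is a bound, at least 1.63-fold lower with the mimic. It was kept through the control arrays alone, and no test is drawn from it. The mean of both probes, -0.63 on the log2 scale, takes in this dim probe and is not a measured fold. Without any 1 of the 4 arrays the LRP5 adjusted p from limma (Benjamini-Hochberg) was 0.0960 to 0.160. It was 0.126 without a filter on dim probes.

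LRP6, the other co-receptor, lay just outside the detection rule. Its raw signal was 242 and 300 on the mimic arrays, of which the second alone was detected, and 234 and 238 on the control arrays. A change in LRP6 was not measurable at this signal. The second LRP5 probe lay just inside the rule, since it was detected on the 2 control arrays and missed the threshold on mimic 2 with a detection p of 0.0104.

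Of the Dishevelled genes, whose products carry the signal from the receptor to the destruction complex, DVL3 was the measured member. DVL3 read 10.27 and 10.10 on the mimic arrays, against 9.71 and 9.63 on the control arrays. Both mimic arrays stood above both control arrays by more than the spread within either group. DVL3 rose by 0.51 ± 0.10 on the log2 scale, which is 1.43-fold higher (limma adjusted p = 0.0206, Benjamini-Hochberg). Without any 1 of the 4 arrays the limma adjusted p of DVL3 was 0.0591 to 0.103 (Benjamini-Hochberg), with a log2 fold change of 0.43 to 0.60, and it was 0.0706 without a filter on dim probes. The single DVL1 probe was detected on 0 arrays, with raw signals of 194 and 166 on the mimic arrays and 200 and 188 on the control arrays. DVL2, a relative listed with the wider pathway and named here after its value was seen, did not pass, at 0.01 ± 0.09 on the log2 scale. DVL2 and DVL3 were not tested against each other.

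Of the destruction complex, AXIN1, its scaffold, lay close to the threshold. AXIN1 read 10.48 and 10.49 on the mimic arrays, against 10.14 and 10.26 on the control arrays. The groups did not overlap, and the mimic arrays nearly coincided. The log2 fold change of AXIN1 was 0.29 ± 0.08, with a 95% interval of 0.07 to 0.51 and a limma adjusted p of 0.0583 (Benjamini-Hochberg). Under 5 of 13 alternative ways of processing its adjusted p was under 0.05. Among them were those without background correction and with the authors' values, which nearly repeat each other. The other AXIN1 probe was detected on 0 arrays, with signals of 198 and 195 on the mimic arrays and 195 and 180 on the control arrays.

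GSK3B phosphorylates beta-catenin within the complex. It read 10.50 and 10.35 on the mimic arrays, against 10.10 and 10.19 on the control arrays. Its groups did not overlap either, but the gap between them was about the size of the spread between the mimic arrays. The log2 fold change of GSK3B was 0.28 ± 0.09, with a 95% interval of 0.03 to 0.53, and did not pass (limma adjusted p = 0.0838, Benjamini-Hochberg). It passed under 3 of 13 alternatives, among them the near repeats without background correction and with the authors' values. APC, the large scaffold lost in many colorectal tumours, had a single probe that was detected on 0 arrays. Its raw signal was 152 and 218 on the mimic arrays and 174 and 199 on the control arrays, so no change in APC was measurable.

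CTNNB1, which encodes beta-catenin itself, did not pass by either kept probe. The brighter probe read 10.77 and 10.62 on the mimic arrays, against 10.41 and 10.70 on the control arrays. The groups overlapped, and the control arrays differed from each other by more than the group means did. Its log2 fold change was 0.14 ± 0.13, with a 95% interval of -0.20 to 0.49 (limma adjusted p = 0.438, Benjamini-Hochberg). The second probe read 10.65 and 10.47 on the mimic arrays and 10.43 and 10.71 on the control arrays, which is a log2 fold change of -0.01 ± 0.13 with a 95% interval of -0.36 to 0.34. On both probes control 1 was the lowest of the 4 arrays, and the probes share these arrays. A further 5 CTNNB1 probes were not kept. One of them lay just outside the rule, with signals of 273 and 255 on the mimic arrays, of which the first was detected and the second had a detection p of 0.0104, against 190 and 186 on the control arrays. These values concern messenger RNA, and the amount and place of the beta-catenin protein were not measured.

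TCF7L2, a TCF factor that partners beta-catenin on DNA, had the widest fall among the core genes. TCF7L2 read 7.55 and 7.58 on the mimic arrays, against 8.80 and 8.49 on the control arrays. The mimic arrays nearly coincided and lay well below both control arrays, which differed from each other. It fell by 1.08 ± 0.13 on the log2 scale, or 2.12-fold, with a limma adjusted p of 0.00726 (Benjamini-Hochberg). The mimic values lay less than 1 log2 unit above the lowest detected signal of those arrays, 6.75 on each, and without background correction the log2 fold change was -0.70. Without mimic 1 or mimic 2 the limma adjusted p was 0.0608 or 0.0559 (Benjamini-Hochberg), and without either control array it stayed under 0.05. TCF7L2 is transcribed from several start sites and spliced in many forms, and its 1 probe cannot tell them apart.

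AXIN2, a second scaffold of the destruction complex and a direct target of beta-catenin and TCF, also fell. AXIN2 read 10.35 and 10.44 on the mimic arrays, against 11.04 and 11.03 on the control arrays. The control arrays agreed closely, and the gap to the mimic arrays was several times the spread in either group. AXIN2 fell by 0.64 ± 0.08 on the log2 scale, or 1.56-fold, with a limma adjusted p of 0.00772 (Benjamini-Hochberg). Without mimic 1 or mimic 2 the limma adjusted p was 0.0614 or 0.0510 (Benjamini-Hochberg), and the log2 fold change was -0.60 or -0.69. The 2 AXIN paralogs thus had log2 fold changes of opposite sign, of which that of AXIN2 passed, and the difference between them was not tested.

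**Figure D2:**
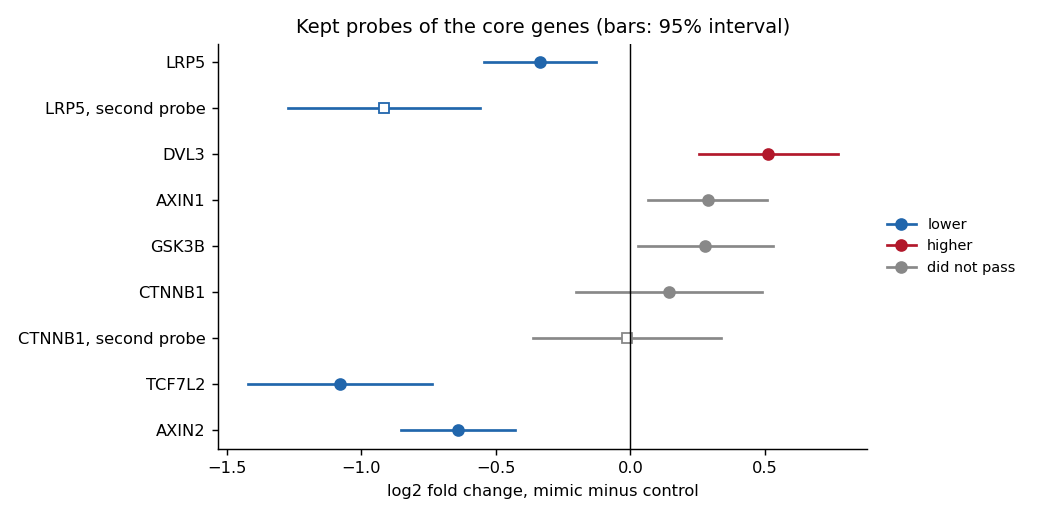
Log2 fold change of each kept probe of the core genes, mimic minus control, with 95% intervals from limma over 2 mimic and 2 control arrays. Filled circles are the probes that represent genes and open squares the second probes. TCF7L2, AXIN2 and the brightest LRP5 probe lie below 0, and DVL3 lies above 0. Grey probes did not pass when adjusted over all kept probes. The second LRP5 probe also lies below 0, but it was kept through the control arrays alone. Its point, interval and colour give no test.

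The core genes were then set beside 157 other genes of the pathway in 7 lists by role, of which 94 genes were measured. Like the core, the lists were chosen with earlier results of these data known. Of these, 32 fell and 13 rose, beside 16.5% and 18.0% of all genes, and 49 did not pass. The 32 include BTRC, which was kept through the control arrays alone. The 49 include DKK2, which was kept through the mimic arrays alone. The median log2 fold change of the 94 was -0.09. Without mimic 1, 11 were called lower and 1 higher, and without mimic 2, 11 lower and 4 higher. Without control 1, 19 were called lower and 7 higher, and without control 2, 18 lower and 7 higher. In what follows, up to 5 called genes of each list are named by the size of their change, and any others that complete a short count were named after their values were seen.

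**Figure D3:**
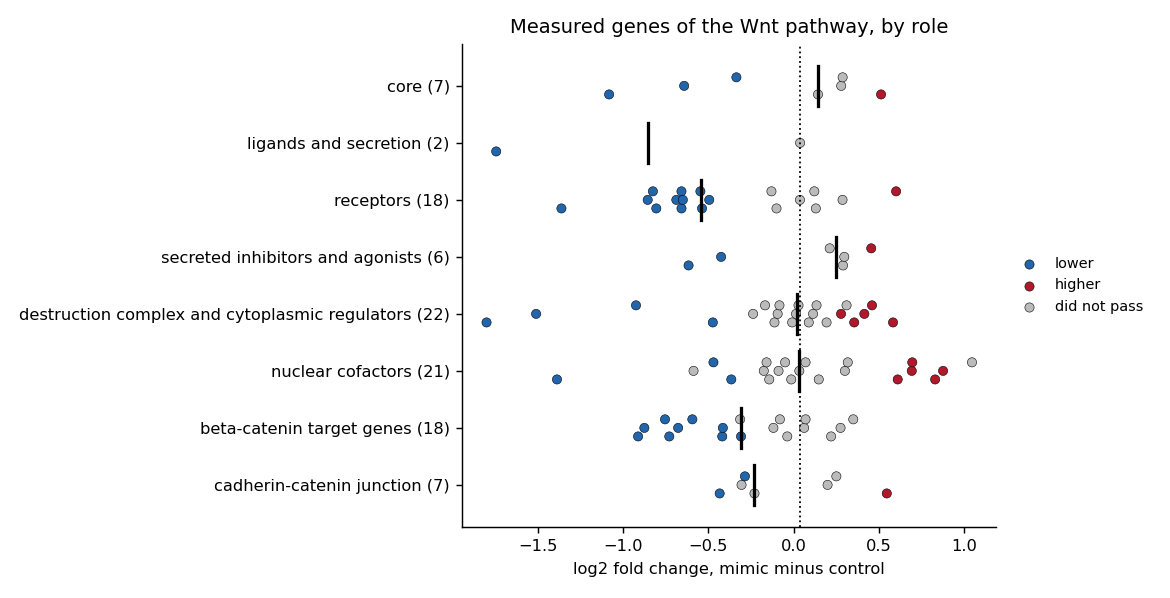
Log2 fold change, mimic minus control, of each measured gene of the core and of 7 wider lists (number measured in brackets), with the median of each list as a black bar and that of all genes, 0.04, as a dotted line. Of the 18 receptor genes 11 were called lower and 1 higher, and of the 18 target genes 9 were called lower and 0 higher. Of all genes, 16.5% were called lower and 18.0% higher. BTRC, drawn as lower among the cytoplasmic regulators, was kept through the control arrays alone and gives no test. DKK2, drawn as not passing among the secreted inhibitors and agonists, was kept through the mimic arrays alone and gives no test either.

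Of the ligand and secretion genes 2 of 21 were measured. WLS, the carrier that takes Wnt proteins to the cell surface, fell by 1.74 ± 0.10 on the log2 scale (3.35-fold, limma adjusted p = 0.00228, Benjamini-Hochberg). WLS read 8.47 and 8.63 on the mimic arrays, against 10.34 and 10.24 on the control arrays, with no overlap. The 2 further WLS probes detected in both groups also passed, with log2 fold changes of -0.57 and -1.29. Another WLS probe was kept through the control arrays alone and has only a bound, at least 1.79-fold lower with the mimic. WNT7B, the measured ligand, did not pass, at 0.04 ± 0.17 on the log2 scale. The other 19 genes of the list had no kept probe.

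Receptor genes were the list with the most falls. The list also holds regulators of receptors, namely RNF43, ZNRF3, KREMEN1 and KREMEN2. Of 22 listed genes 18 were measured. Of these, 11 fell, KREMEN2 among them, and 1 rose, beside 16.5% and 18.0% of all genes, and 6 did not pass. The median log2 fold change was -0.54. FZD6, a Frizzled receptor, read 8.78 and 8.91 on the mimic arrays, against 10.16 and 10.26 on the control arrays, and fell by 1.36 ± 0.09, or 2.57-fold (limma adjusted p = 0.00272, Benjamini-Hochberg). The Frizzled genes FZD9, FZD7 and FZD1 fell by 0.85 ± 0.08, 0.80 ± 0.10 and 0.69 ± 0.10, and LGR6, a receptor for R-spondins, fell by 0.82 ± 0.16. A dimmer second probe of FZD7 missed the threshold, at 0.00051 ± 0.23 on the log2 scale, and the mean of both FZD7 probes did not pass either, at -0.40. Without background correction LGR6 and FZD1 had smaller log2 fold changes, -0.48 and -0.42. Without a filter on dim probes LGR6 lost its call (limma adjusted p = 0.0619, Benjamini-Hochberg). With 1 array left out in turn, the log2 fold change was -1.04 to -0.62 for LGR6, -0.90 to -0.71 for FZD7 and -0.79 to -0.57 for FZD1. FZD8, the 1 receptor gene that rose, changed by 0.60 ± 0.09. With mimic 1 left out, or with mimic 2 left out, 3 of the 18 receptor genes were called lower, and with control 2 left out 7 were. The shares of all genes called lower in those fits were 5.42%, 6.03% and 10.2%.

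Secreted modulators moved both ways. Of 19 listed genes 6 were measured. DKK3 and DKK1 fell, beside 16.5% of all genes, SFRP1 rose, beside 18.0% of all genes, and 3 did not pass. DKK1, an inhibitor that binds LRP5 and LRP6, fell by 0.42 ± 0.07, and its relative DKK3 fell by 0.62 ± 0.09. SFRP1, which binds Wnt proteins outside the cell, rose by 0.46 ± 0.09. The second kept probes of DKK1 and DKK3 fell by 0.55 ± 0.08 and 0.68 ± 0.08. With 1 array left out in turn, the limma adjusted p (Benjamini-Hochberg) was 0.0583 to 0.102 for DKK1, 0.0396 to 0.0698 for DKK3 and 0.0418 to 0.117 for SFRP1.

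Of 32 listed partners of the destruction complex and other cytoplasmic regulators, 22 were measured. Of these, 5 rose and 4 fell, beside 18.0% and 16.5% of all genes, and 13 did not pass. The median log2 fold change was 0.02. The 4 falls count BTRC, from which no test is drawn. BTRC, the F-box protein that recognises phosphorylated beta-catenin for ubiquitination, was detected on neither mimic array and on both control arrays, which puts it at least 1.87-fold lower with the mimic. Since BTRC was kept through the control arrays alone, no p is given for it. NKD2, an antagonist that binds Dishevelled, read 8.15 and 8.25 on the mimic arrays, against 9.78 and 9.64 on the control arrays, and fell by 1.51 ± 0.09. CUL1, the cullin of the ligase that uses BTRC, fell by 0.47 ± 0.11, and lost its call without mimic 1, mimic 2 or control 1, at a limma adjusted p of 0.0978 to 0.153 (Benjamini-Hochberg). Casein kinase genes split. CSNK1D fell by 0.92 ± 0.07, while CSNK1A1, the kinase that primes beta-catenin for GSK3B, rose by 0.58 ± 0.08, and CSNK1G1 and CSNK1E rose by 0.46 ± 0.07 and 0.28 ± 0.07. SIAH1, a ubiquitin ligase, and PPP2R5A, a phosphatase subunit, rose by 0.41 ± 0.09 and 0.36 ± 0.09. Every further kept probe of CSNK1A1, CSNK1D, CSNK1E and SIAH1 passed with the sign of the probe used.

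Nuclear cofactors were called in both directions, in shares near those of all genes. Of 21 measured of 27 listed, 5 rose and 3 fell, beside 18.0% and 16.5% of all genes, and 13 did not pass. The median log2 fold change was 0.03. NLK, a kinase that phosphorylates TCF and LEF factors, fell by 1.39 ± 0.22, but was detected on 1 of the 2 mimic arrays, and without background correction its log2 fold change was -0.80. BCL9, a coactivator of beta-catenin, and TLE1, a corepressor of TCF factors, fell by 0.47 ± 0.08 and 0.36 ± 0.09. CBY1 and CTNNBIP1, which bind beta-catenin and block its pairing with TCF factors, rose by 0.88 ± 0.08 and 0.69 ± 0.18. Without background correction the log2 fold change of CTNNBIP1 was 0.36. CTNNBIP1 lost its call without mimic 1, without either control array and without a filter on dim probes, at a limma adjusted p of 0.103 to 0.137 (Benjamini-Hochberg). TLE5 and TLE4, of the same family as TLE1, rose by 0.83 ± 0.10 and 0.70 ± 0.07, and HDAC1, a histone deacetylase, rose by 0.61 ± 0.07. The second kept probe of TLE5 rose by 0.86 ± 0.11, and that of TLE4 did not pass, at 0.29 ± 0.11.

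Of the 27 listed target genes of beta-catenin other than AXIN2, 18 were measured. Of these, 9 fell and 0 rose, beside 16.5% and 18.0% of all genes, and 9 did not pass. The median log2 fold change was -0.31. At an unadjusted p under 0.05 in limma, 9 were lower and 1 was higher, beside 21.3% and 25.4% of all genes. ID2, an inhibitor of basic helix-loop-helix factors, fell by 0.91 ± 0.09, and MYC, a driver of growth, fell by 0.87 ± 0.08. JUN, a subunit of AP-1, fell by 0.75 ± 0.12, MET, the receptor of hepatocyte growth factor, by 0.73 ± 0.08, and CCND1, cyclin D1, by 0.68 ± 0.07. The second kept probes of ID2 and MYC fell by 0.82 ± 0.09 and 0.89 ± 0.07, while that of MMP7 did not pass, at -0.24 ± 0.08. Of the 2 further kept probes of CD44, a cell surface glycoprotein, 1 did not pass, at 0.04 ± 0.09. The other has only a bound, at least 1.27-fold higher, since it was kept through the mimic arrays alone. MMP7 and CD44 are named here after their values were seen. The other 4 falls lay between 0.31 and 0.59 in size. Many signals other than beta-catenin act on these genes, and their link to the pathway was not measured here. Without mimic 1 or without mimic 2, 3 of the 18 were called lower, without control 1, 5 were, and without control 2, 4 were. The shares of all genes called lower in these fits were 5.42%, 6.03%, 10.5% and 10.2%.

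Beta-catenin also joins cadherins at cell contacts. Of the 9 genes listed for the cadherin-catenin junction 7 were measured. Of these, 2 fell and 1 rose, beside 16.5% and 18.0% of all genes, and 4 did not pass. The cadherin genes CDH2 and CDH1 fell by 0.43 ± 0.08 and 0.29 ± 0.07. Both lost their call with any 1 array left out, at a limma adjusted p (Benjamini-Hochberg) of 0.0529 to 0.104 for CDH2 and 0.117 to 0.174 for CDH1, and without a filter on dim probes, at 0.0742 and 0.160. JUP, which encodes plakoglobin, the closest relative of beta-catenin, rose by 0.55 ± 0.11, while its 2 further kept probes did not pass, at 0.50 ± 0.20 and 0.17 ± 0.25. With 1 array left out the limma adjusted p of JUP was 0.0528 to 0.0912 (Benjamini-Hochberg), and the mean of its 3 probes did not pass, at 0.41.

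**Figure D4:**
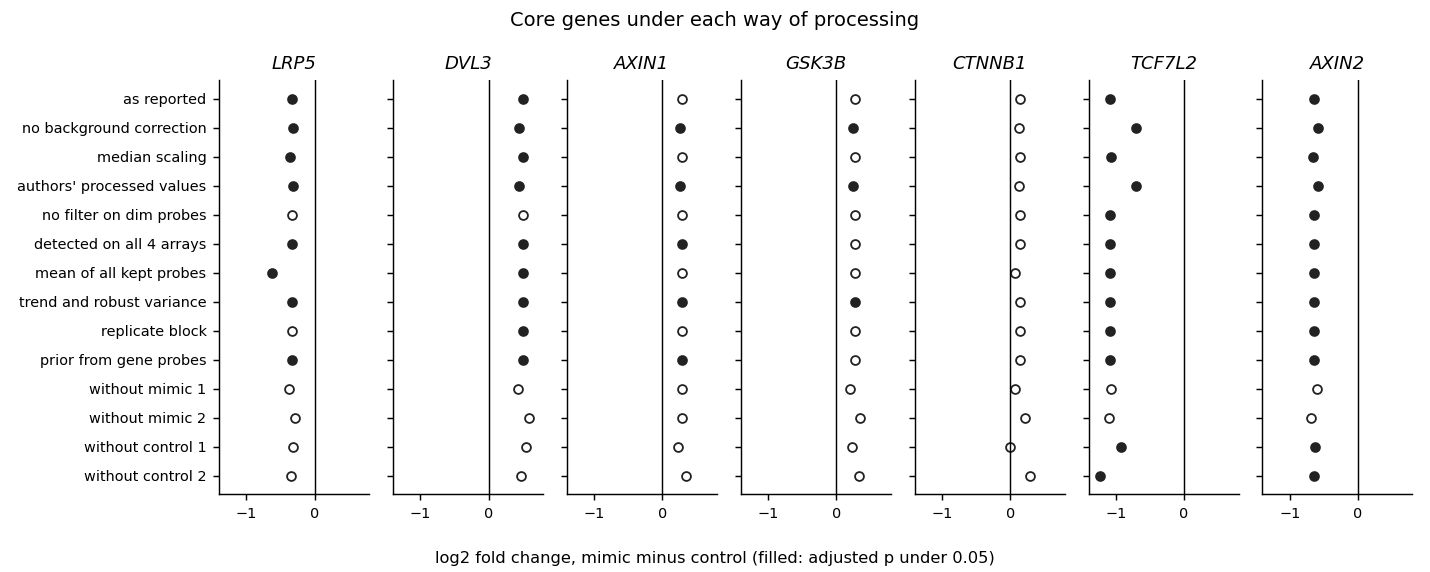
Log2 fold change, mimic minus control, of each measured core gene as reported and under 13 other ways of processing, with filled points at an adjusted p under 0.05 and open points otherwise. The direction of each of the 7 genes was the same in every row, CTNNB1 coming closest to 0 without control 1. AXIN2 and TCF7L2 lost their call with either mimic array left out. DVL3 and LRP5 lost theirs with any 1 array left out and without a filter on dim probes, and LRP5 is open in 1 further row, that of the replicate block.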

How the data were processed

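A549 cells were harvested 24 hours after transfection, and biotin cRNA made from their total RNA was read on bead arrays, per the labels, with 2 mimic and 2 control arrays. The authors deposited a linear intensity for each probe (GenomeStudio 2009.2, per the submitters' processing notes). The authors deposited a detection p-value beside each. A second deposited table holds log2 values of 19069 probes, with a median of 9.42 on every array. Its making is not stated in the labels. After centring each probe its columns followed the log2 signals of the same arrays (r of 0.979 or more), which settles scale and direction. Sorted, its values lay within 0.003 of log2 of the mean sorted linear signals. That is what quantile normalization of the signals without background correction gives. The table served as an alternative, which nearly repeats the one without background correction.

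Background correction (normexp, from detection p-values), an offset of 16, quantile normalization and log2 were applied with neqc of limma 3.58.1 under R 4.3.3. Of 47320 probes, 16561 passed the detection rule (p under 0.01 on 2 or more of 4 arrays). The platform annotation names 1 gene for 30113 probes, several for 8 and none for 17199, and symbols of 30092 were updated through a RefSeq table. The brightest kept probe stood for its gene. One model without covariates was fitted to all kept probes (lmFit, eBayes), with 2 residual and 2.48 prior degrees of freedom. Benjamini-Hochberg adjustment ran over 10239 genes, and for second probes over all kept probes, with calls at an adjusted p under 0.05. For a probe undetected throughout 1 group, the bound uses the lowest detected signal of each array or the probe's own, whichever is higher. The code was tested on simulated data.

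The members and lists were chosen with earlier results of these data known. Named genes are the core genes and, per list, up to 5 called genes of largest change. Slides and scan dates were not analysed here, so no batch was tested. The number of arrays limits precision. Alternatives covered background, scaling, the authors' values, probe filters, averaged probes, variance models, a replicate block and each array left out. Figures used matplotlib 3.10.9.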

Additional observations from a re-analysis of the deposited data

How the results depend on the processing

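Under 13 alternatives, 34 named genes gave 440 log2 fold changes, of which 0 changed direction, 360 kept their side of the threshold, 72 lost a call and 8 gained one. BTRC and NLK have no value when detection on all 4 arrays is required. The 360 hold 12 values of BTRC, which was kept through the control arrays alone and gives no test. BTRC is also counted in the wider pathway genes called lower below. Leaving out 1 array in turn, a fit that assumes the lone array of a group varies like the others, left 0 to 2 core genes called lower and 0 called higher by limma (at an unadjusted p under 0.05, 2 to 3 lower and 1 to 2 higher), 11 to 19 wider pathway genes lower and 1 to 7 higher, and 555 to 1080 of all genes lower and 271 to 1127 higher. Receptor genes called lower were then 3 to 8 and called higher 0 to 1, and target genes called lower 3 to 5.

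The count of core genes called higher was 3 without background correction, 3 with the authors' processed values and 3 with a trend and robust variance. It was 2 with probes detected on all 4 arrays and 2 with a variance prior from the gene probes alone, the last chosen after seeing the data. The shares of all genes called higher in these fits, in that order, were 21.9%, 21.9%, 24.1%, 20.8% and 20.1%. The fits without background correction and with the authors' values nearly repeat each other. Without a filter on dim probes, which raises the genes tested to 20039, 0 core genes were called higher by limma (2 at an unadjusted p under 0.05), 19 wider pathway genes lower and 6 higher, 5 target genes lower, and 961 of all genes lower and 768 higher. With a trend and robust variance 23 wider pathway genes and 2 target genes were called higher, beside 24.1% of all genes. Without background correction or with the authors' values 1 target gene was, beside 21.9% of all genes in either fit.

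The mimic and control arrays share replicate numbers. The difference between the mimic arrays correlated at -0.057 across genes with that between the control arrays, so the numbers give no sign of pairing. With the replicate block, 2 core genes were called lower, LRP5 losing its call (limma adjusted p = 0.0714, Benjamini-Hochberg), and 1 higher. CTNNBIP1 and CDH1 also lost their calls (0.0687 and 0.0941). There were 28 wider pathway genes lower and 10 higher, and 1328 of all genes lower and 1306 higher. Signal over background limits APC, LRP6 and DVL1, which gave no test.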
